A study of Homo sapiens with 8 samples.

Results

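The genes described here are the zinc finger genes of chromosome 19: every gene that the deposited count table places on that chromosome, whose symbol by Ensembl ID is ZNF followed by digits alone, and that has at least 1 count in some library. There are 234 of them among the 34618 genes of the table, and all are referred to below as members. Another 4 ZNF genes of the chromosome (ZNF112, ZNF676, ZNF728 and ZNF729) had 0 counts in every library, where 3 counts would be between 2.57e-05% and 2.73e-05% of a library. Stranded poly(A) RNA sequencing gave 8 libraries, all from cells that carry the label THP1, a line from a human monocytic leukaemia. The 4 libraries called MOCK came from cells carrying an empty vector, and the 4 called RRM2_OE from cells with the construct named iRxI/AxA mutant, described in the labels as RRM2 OE and read here as overexpression. RRM2 encodes one subunit of ribonucleotide reductase, the source of deoxyribonucleotides for DNA synthesis. Every culture received doxycycline at 2 µg/mL, so the controls carry the drug too, and no library without it was analysed here. Nothing in the labels tells if replicates came from separate cultures, or if the engineered cells were clones, and p-values below therefore measure the spread between these libraries, which may be technical.

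Zinc finger proteins of the C2H2 class read DNA with rows of small zinc-binding domains, each contacting a few bases, and neighbouring fingers are joined by a short conserved linker. Many of those encoded on human chromosome 19 also carry a KRAB domain, which binds the corepressor TRIM28. TRIM28 brings in SETDB1, a histone methyltransferase that deposits H3K9me3, and through it silences transposable elements and some genes. The family grew by repeated tandem duplication, so that relatives lie side by side in clusters along the chromosome.

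The finger linker can be read in the coding sequences. Each of the 3 stretches of 30 coding bases that follow, taken from GENCODE 29 transcripts 5′ to 3′, is the first in its gene that matches a pattern of 14 bases, shown in capitals, which encodes the linker between 2 fingers. The twelfth base of the pattern may be any, and the others are fixed. ZNF93 and ZNF441 are shown because they rose in RRM2_OE, and ZNF91 as a close relative of ZNF93 that was not called.
ZNF93: attcatACTGGAGAGAAACCctacatttgt
ZNF91: atacacACTGGAGAGAAACCctacaaatgt
ZNF441: actcacACTGGAGAGAAACCgtatgaatgt
Apart from the twelfth, the capital letters are the same in all 3 genes because the pattern fixes them. The bases on either side are alike at some positions and differ at others. The pattern, searched on the coding strand, occurs 10 times in ZNF93, 17 times in ZNF91 and 5 times in ZNF441. It was found in 150 of the 234 members (64.1%, up to 18 times in ZNF208), in 73 of 226 coding ZNF genes of other chromosomes (32.3%) and in 0.226% of the 18545 other coding genes of the table. Repeats of this kind matter for counting, since a read from one member can match another. Each gene was represented by its protein-coding transcript with the longest coding sequence. Non-coding genes, pseudogenes and other transcripts were not searched. For the median member, 0.930% of the 50-base stretches of this transcript also occur in that of another gene. The share was over 10% for 26 members, and 72 members had no shared stretch.

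The members were not spread evenly along the chromosome. With neighbours joined where their starts lay at most 1 Mb apart, 225 of 234 fell into 9 groups of at least 5 members, and 5 members stood alone. In hg19 coordinates, the build of the deposited tables, the largest groups were 56 members from ZNF628 to ZNF446 at 56.0 to 59.0 Mb, near the end of the long arm, 39 members from ZNF175 to ZNF331 at 52.1 to 54.1 Mb, and 33 members from ZNF101 to ZNF254 at 19.8 to 24.3 Mb, beside the centromere. Groups of 25 members each lay at 11.6 to 12.8 Mb (ZNF653 to ZNF791) and at 36.7 to 38.3 Mb (ZNF565 to ZNF573), and 22 members lay at 44.0 to 45.6 Mb.

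The group from ZNF101 to ZNF254 also shared promoter sequence. Of its promoters, 6 follow, each as 150 bases 5′ to 3′ on the gene's own strand from RefSeq (GRCh38.p14, a later build than that of the count table). ZNF93, ZNF730 and ZNF714 are shown because they were called between the groups of libraries, ZNF91 because it was not, and ZNF208 and ZNF257 because they were almost silent. Capitals mark CCAATCAG on the printed strand, a form of the CCAAT box, which was searched for on both strands after these promoters had been seen.
ZNF93 (chr19:19900796-19900945, plus strand): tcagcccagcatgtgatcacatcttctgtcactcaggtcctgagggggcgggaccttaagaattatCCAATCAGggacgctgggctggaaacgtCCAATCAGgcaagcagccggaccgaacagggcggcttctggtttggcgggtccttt
ZNF730 (chr19:23116875-23117024, plus strand): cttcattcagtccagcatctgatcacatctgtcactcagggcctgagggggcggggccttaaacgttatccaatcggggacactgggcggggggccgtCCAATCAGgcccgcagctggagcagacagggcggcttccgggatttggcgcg
ZNF714 (chr19:21082053-21082202, plus strand): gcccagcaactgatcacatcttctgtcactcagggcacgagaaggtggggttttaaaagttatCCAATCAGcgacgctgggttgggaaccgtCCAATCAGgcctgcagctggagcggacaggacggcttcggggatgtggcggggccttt
ZNF91 (chr19:23395472-23395621, minus strand): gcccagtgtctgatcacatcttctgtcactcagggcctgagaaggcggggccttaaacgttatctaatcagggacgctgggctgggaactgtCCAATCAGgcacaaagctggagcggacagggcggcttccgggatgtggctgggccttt
ZNF208 (chr19:22010944-22011093, minus strand): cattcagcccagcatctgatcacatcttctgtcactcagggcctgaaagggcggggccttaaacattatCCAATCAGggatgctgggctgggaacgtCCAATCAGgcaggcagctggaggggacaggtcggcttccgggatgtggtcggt
ZNF257 (chr19:22052334-22052483, plus strand): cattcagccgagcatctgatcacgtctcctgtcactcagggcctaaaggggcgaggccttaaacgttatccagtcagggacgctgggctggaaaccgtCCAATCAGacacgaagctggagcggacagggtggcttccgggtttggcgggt
The printed stretches of ZNF93, ZNF714 and ZNF208 hold 2 copies, and those of ZNF730, ZNF91 and ZNF257 hold 1. Promoters were matched by gene for 206 of the 234 members. In a window of 250 bases before to 50 after the start, CCAATCAG occurred in 28 of 28 matched genes of this group and at least 2 times in 14 of them. It occurred in 28 of the other 178 members (15.7%), in 4.75% of all 27305 genes of the promoter table and in 3.97% of its 35116 promoters. Over the 250 upstream bases, pairs of promoters within the group were identical at a median of 76.7% of aligned positions (47.9% to 92.0%, 351 pairs, highest for ZNF714 with ZNF431), against 49.8% for pairs of members from different other groups. Pairs of neighbours within the other groups were not compared, so likeness of this size is not shown to be particular to this group. Likeness of the promoter went with no single level: the upstream bases of ZNF208 were 86.4% identical to those of ZNF91, yet ZNF208 had 1 count in the 8 libraries together and ZNF91 had 2254. ZNF257, at 80.2% identity to ZNF91, had 5 counts, and ZNF93, at 83.1%, had 3392. A match of letters is a description and shows no binding.

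Levels are given as the authors' RPKM, read counts scaled to exon length and library total, which can be compared between genes. The median member stood at 2.27 RPKM (mean of the 8 libraries), with quartiles of 1.00 and 3.88. Of the 234, 177 reached 1 RPKM, 41 reached 5 and 10 reached 10. The 211 members with enough counts to test had a median of 2.50 RPKM, lower than the 3.93 of the 203 tested ZNF genes of other chromosomes and the 6.25 of all 15286 tested genes. 

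**Figure D1:**
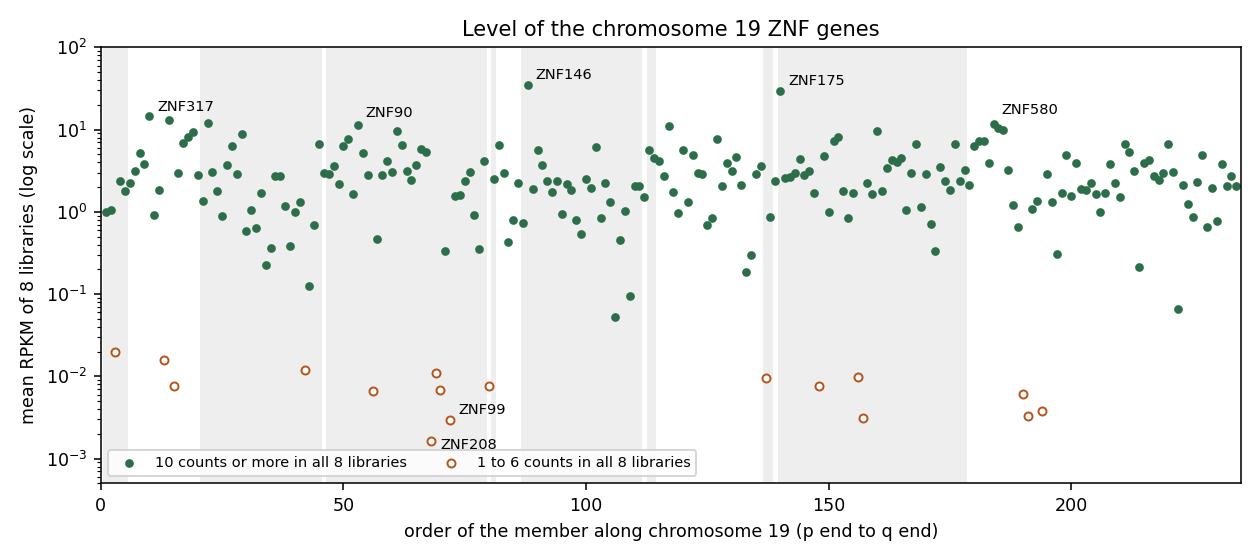
Mean RPKM of the 8 libraries (log scale) for each of the 234 members in order along chromosome 19, with grey and white bands for successive groups of neighbours and single members between them. ZNF146 and ZNF175 stand above the rest at 34.6 and 29.7 RPKM, and 17 members with 1 to 6 counts in all 8 libraries (open circles) lie far below the others and in several groups.

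ZNF146 was the highest member at 34.6 ± 2.50 RPKM (SD, n = 8 libraries). It encodes OZF, a protein made almost only of fingers and without a KRAB domain. ZNF175, known as OTK18 and studied in HIV-infected macrophages, was next at 29.7 ± 1.14 RPKM. Both lay well above ZNF317 at 14.5 ± 0.872 and ZNF266 at 13.2 ± 1.10, whose spreads over the libraries overlapped. ZNF627 (12.2 ± 0.783), ZNF580 (11.8 ± 2.23), ZNF90 (11.4 ± 0.629) and ZNF428 (11.1 ± 0.777) followed and did not differ from their neighbours in this order by more than their spread. The 8 genes lie in 7 different groups of neighbours, and every group of 5 or more neighbours held members at very different levels. From lowest to highest member, mean RPKM ran from 0.00162 (ZNF208) to 11.4 (ZNF90) in the group beside the centromere, from 0.00308 (ZNF578) to 29.7 (ZNF175) in the group of 39, and from 0.00326 (ZNF471) to 11.8 (ZNF580) in the group of 56. It ran from 0.0118 (ZNF709) to 12.2 (ZNF627) in the group that starts at ZNF653, from 0.0530 (ZNF793) to 34.6 (ZNF146) in the one that starts at ZNF565, and from 0.184 (ZNF233) to 11.1 (ZNF428) in the group of 22. In the 3 smaller groups it ran from 0.00771 (ZNF560) to 14.5 (ZNF317), from 0.0200 (ZNF556) to 2.37 (ZNF57) and from 0.427 (ZNF599) to 6.46 (ZNF302). Medians of the 9 groups lay closer together, between 1.05 and 3.16 RPKM.

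At the other end, 17 members had between 1 and 6 counts in the 8 libraries together, and the next member, ZNF418, had 27. ZNF208, ZNF99 and ZNF835 had 1 count each. ZNF98, ZNF578, ZNF471 and ZNF560 had 2, and ZNF841, ZNF534 and ZNF556 had 3. ZNF626 and ZNF541 had 4, ZNF667, ZNF257 and ZNF177 had 5, and ZNF709 and ZNF536 had 6. Of the 17, 5 lie in the group from ZNF101 to ZNF254, which also holds ZNF90 with 5230 counts and ZNF93 with 3392. Where genes overlap or share sequence, a count near 0 can also come from reads that were assigned to neither gene: 5 of the 17 overlap another measured gene on the same strand, against 72 of the other 217 members. ZNF709 and ZNF177 share 88.8% and 76.9% of their 50-base stretches with another gene. ZNF536, ZNF541, ZNF560, ZNF534 and ZNF667 share none in this comparison, which leaves out non-coding genes and pseudogenes.

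Members together took 0.360 ± 0.015% of counts in MOCK (SD, n = 4) and 0.358 ± 0.013% in RRM2_OE. By library the share was 0.343%, 0.369%, 0.353% and 0.377% in MOCK replicates 1 to 4, and 0.345%, 0.368%, 0.349% and 0.372% in RRM2_OE replicates 1 to 4. The groups overlapped almost fully, while replicates 1 and 3 lay below replicates 2 and 4 in both of them. Library totals ran from 10994255 to 11686152 counts. RRM2 itself, as a check of the labels, stood at 116, 128, 123 and 127 CPM (counts scaled to a common library total) in MOCK and 223, 236, 215 and 224 in RRM2_OE, a log2 fold change of 0.87 (edgeR adjusted p = 5.64e-07). Of 13 marker genes of monocytic leukaemia, 12 stood at 1 CPM or more in every library. CD68, a marker of monocytes and macrophages, was the exception with few counts, at 0.265 to 1.13 CPM, and the reason was not tested. Several of the 13 markers moved with the mutant. MPO, a granule enzyme of immature myeloid cells, fell, with 1079 to 1354 CPM in MOCK and 419 to 512 in RRM2_OE (log2 fold change -1.39, edgeR adjusted p = 8.29e-06). LYZ (0.37), CD14 (0.41), ITGAM (0.33) and CSF1R (0.25) rose. CD33 (0.13), SPI1 (0.01), CEBPA (-0.08), CD4 (0.09), FCGR1A (0.12), HOXA9 (-0.08) and MEIS1 (0.03) were not called in the same test. Summed T and NK cell markers were 41.5 to 46.2 CPM in MOCK and 59.1 to 72.5 in RRM2_OE, nearly all from CD3D and NKG7, since CD3E, CD3G and CD2 were at most 0.696 CPM in any library. Summed B cell markers were 4.16 to 6.25 CPM and 5.61 to 7.84. Summed erythroid markers were 205 to 330 CPM in MOCK and 140 to 263 in RRM2_OE, and fibroblast markers summed to at most 0.808 CPM. Summed epithelial markers were 12.1 to 18.2 CPM in MOCK and 14.7 to 19.3 in RRM2_OE, nearly all of it KRT18 (11.7 to 18.8 CPM), with KRT19 at 0 in every library. The part of these marker changes, or of other cells, in the results below was not tested. In bulk RNA, fewer cells of a type and less RNA per cell cannot be told apart.

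Few members were called between the constructs. Of the 211 tested, 5 rose and 6 fell with the mutant (edgeR quasi-likelihood test, adjusted p under 0.05), which is 5.21% of them. Over all genes tested the share was 12.8%, with 7.41% higher and 5.42% lower. Called members were thus a smaller share than the background in both directions, at 2.37% higher and 2.84% lower. Members were also measured less precisely, with a median SE of 0.11 against 0.09 for all genes tested. Their median level was lower too, at 2.50 against 6.25 RPKM. The part of level and precision in the smaller share was not tested. The share was 8.37% for ZNF genes of other chromosomes (17 of 203) and 12.6% for the other genes of chromosome 19 (124 of 984). The median log2 fold change of the members was -0.03, against -0.00 for all genes, and 119 of the 211 were below 0. The largest differences in either direction, 0.70 for ZNF492 and -0.50 for ZNF665 (both singled out after their values were seen), were not called, at adjusted p = 0.0960 and 0.0875 by edgeR, but both were called with the replicate number as a block (0.0407 and 0.0125).

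Groups of libraries that did not overlap in CPM were found for 26 of the 211 members (12.3%), 10 of them higher and 16 lower in RRM2_OE, against 19.4% of all genes tested, 10.5% higher and 8.89% lower. The precision was enough to bound most changes. An interval of 1.96 standard errors around the fold change lay wholly within 1.5-fold in either direction for 177 members (83.9%) and within 2-fold for 209. It lay within 1.25-fold for only 96, so small changes of the rest are not resolved.

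**Figure D2:**
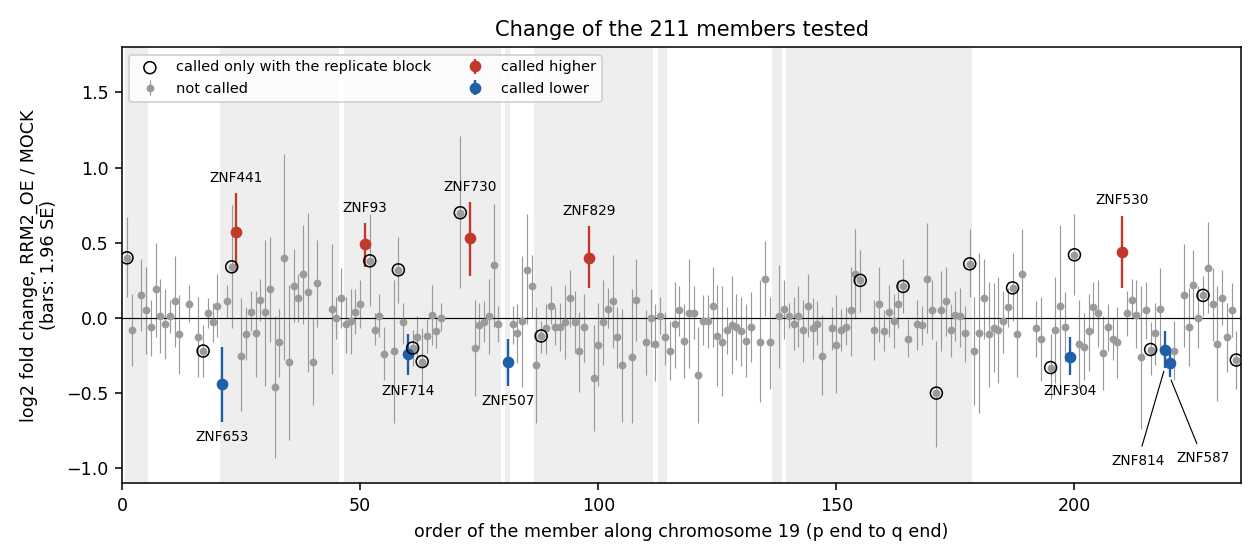
Log2 fold change between RRM2_OE and MOCK (log2 of fitted CPM, bars of 1.96 SE) for the 211 tested members in order along chromosome 19, with bands as in the plot of levels. The 5 called rises (red) and 6 called falls (blue) lie scattered among members near 0, and open rings mark the 19 further members called only in a fit that includes the replicate number.

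The 5 members that rose lie in 4 groups of neighbours and a log2 range of 0.40 to 0.57. The best supported was ZNF93 (ENSG00000184635, chr19:20011722-20046384, hg19), a KRAB protein known for repressing LINE-1 retrotransposons. It stood at 32.6, 29.0, 32.9 and 29.3 CPM in MOCK and at 44.6, 42.2, 47.7 and 39.2 in RRM2_OE. Each RRM2_OE library was above each MOCK library, with a log2 fold change of 0.49 (SE 0.07, edgeR adjusted p = 9.60e-04). Of its 50-base stretches, 4.56% also occur in another gene, chiefly ZNF253.

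ZNF441 (chr19:11877815-11894893) had the largest called rise. It read 5.81, 7.70, 6.81 and 6.73 CPM in MOCK and 9.14, 8.88, 9.71 and 12.4 in RRM2_OE, a log2 fold change of 0.57 (SE 0.13, edgeR adjusted p = 0.0143). All RRM2_OE libraries were higher, and replicate 4 stood above the other 3. ZNF730 (chr19:23258012-23330021), in the same group of neighbours as ZNF93, read 4.40, 3.80, 4.75 and 3.68 CPM against 5.83, 6.10, 6.41 and 5.61, a log2 fold change of 0.53 (SE 0.13, edgeR adjusted p = 0.0168). Its groups were also fully apart.

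ZNF530 (chr19:58111253-58124090) stood at 7.13, 7.08, 5.02 and 6.64 CPM in MOCK and 8.18, 9.06, 9.19 and 8.72 in RRM2_OE, with a log2 fold change of 0.44 (SE 0.12, edgeR adjusted p = 0.0319). ZNF829 (chr19:37379026-37407193) stood at 5.46, 5.40, 5.37 and 4.93 CPM and at 7.57, 6.88, 6.85 and 6.74, with a log2 fold change of 0.40 (SE 0.11, edgeR adjusted p = 0.0262). Neither group overlapped the other for these 2 genes. ZNF829 lies opposite ZNF345, and the sources used here do not state how strand was handled in counting. Without MOCK replicate 2, MOCK replicate 3 or RRM2_OE replicate 2, only 3 rises were called. ZNF829 was the least stable rise: it lost its call in 11 of 20 alternative settings, 6 of them with 1 library left out, and with DESeq2 (adjusted p = 0.0803). ZNF530 lost it in 7 and ZNF730 in 5.

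The 6 members that fell had log2 fold changes between -0.44 and -0.21. ZNF587 (ENSG00000198466, chr19:58361225-58376480) was the best supported of them. Together with its near copy ZNF417 it is known for silencing primate-specific endogenous retroviruses. It read 54.0, 55.7, 52.5 and 56.0 CPM in MOCK and 43.2, 44.6, 44.5 and 45.3 in RRM2_OE, a gap between the groups wider than the range within either, with a log2 fold change of -0.30 (SE 0.05, edgeR adjusted p = 0.00220). ZNF814 (chr19:58360099-58400442) spans it on the opposite strand and fell too, from 44.1, 41.0, 38.9 and 37.3 CPM to 35.5, 34.8, 34.8 and 34.3 (log2 fold change -0.21, SE 0.06, edgeR adjusted p = 0.0452). The 2 are not separate observations with certainty: they overlap, ZNF587B lies in the same place, and 19.8% and 17.3% of their 50-base stretches are shared with other genes.

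ZNF304 (chr19:57862675-57871266), a KRAB protein described as recruiting a corepressor complex to the INK4-ARF locus, lies in the same group of neighbours. Its levels were 25.1, 24.6, 23.8 and 24.9 CPM in MOCK and 21.3, 19.9, 19.8 and 21.3 in RRM2_OE (log2 fold change -0.26, SE 0.06, edgeR adjusted p = 0.0209). ZNF507 (chr19:32836500-32878573), which stands alone on the long arm, had 31.2, 29.5, 28.7 and 34.5 CPM against 23.9, 24.6, 24.4 and 28.2 (log2 fold change -0.29, SE 0.08, edgeR adjusted p = 0.0297). All RRM2_OE libraries lay below all MOCK libraries in both genes, narrowly in ZNF507.

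ZNF714 (chr19:21264965-21308073) is a neighbour of ZNF93 and ZNF730 that went the other way. Its levels were 24.8, 25.8, 28.1 and 28.0 CPM in MOCK and 23.1, 23.3, 22.7 and 21.2 in RRM2_OE (log2 fold change -0.24, SE 0.07, edgeR adjusted p = 0.0371). ZNF653 (chr19:11594242-11616738), low in all libraries, had 5.72, 5.22, 4.93 and 4.85 CPM against 3.92, 3.75, 3.47 and 4.15 (log2 fold change -0.44, SE 0.13, edgeR adjusted p = 0.0382). It overlaps ECSIT on the same strand. ZNF653 lost its call in 13 of 20 alternative settings, among them all 8 that left out 1 library and DESeq2 (adjusted p = 0.108). ZNF714 and ZNF814 also lost theirs in 13 each (DESeq2 adjusted p = 0.0547 and 0.0611), ZNF507 in 8 and ZNF304 in 6. Falls were the less stable side: between 1 and 4 were called when a library was left out, down to 1 without RRM2_OE replicate 3 and 2 without MOCK replicate 1 or RRM2_OE replicate 1. DESeq2, and limma on log2 RPKM, called 3 falls beside the same number of rises, 5, and scaling by library sizes alone called 4 falls and 5 rises. With DESeq2 the rises were not the same genes, since ZNF331 was called (adjusted p = 0.0385) and ZNF829 was not.

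**Figure D3:**
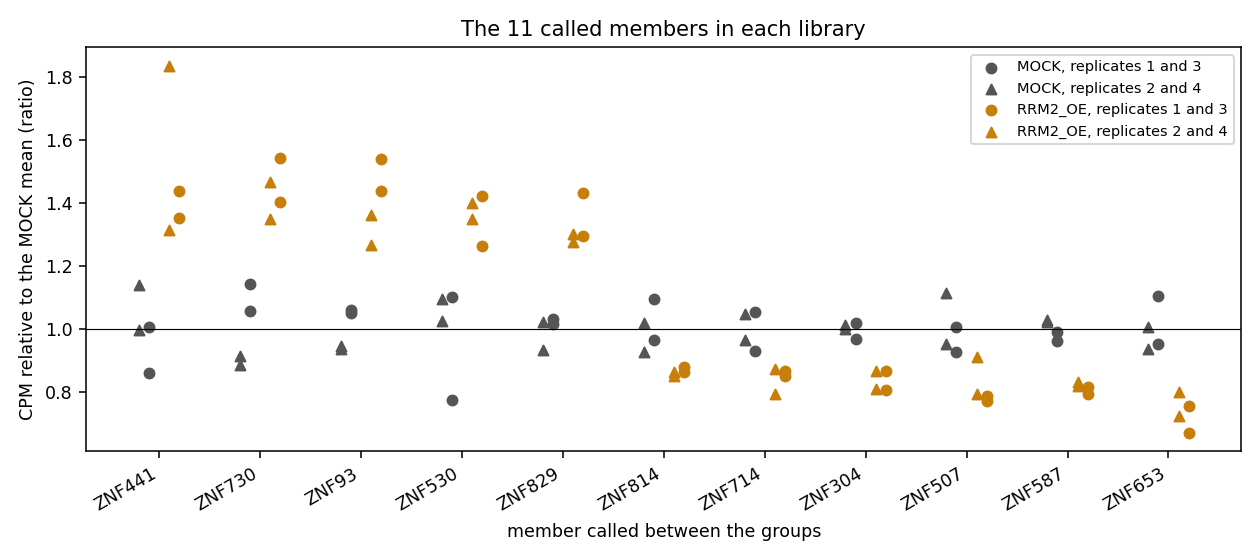
CPM of each library divided by the MOCK mean of the gene, for the 11 called members, with MOCK in grey and RRM2_OE in orange, circles for replicates 1 and 3 and triangles for replicates 2 and 4. In each gene the 4 RRM2_OE points lie on one side of the 4 MOCK points, above 1 for the 5 rises on the left and below 1 for the 6 falls.

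Replicates 1 and 3 stood apart from replicates 2 and 4 in both groups, as set out below, so the comparison was also read within each. Since the groups do not overlap in any of the 11 called members, their direction is fixed in either subset, and the sizes alone are given. For ZNF93 the log2 differences were 0.49 and 0.48, for ZNF587 -0.28 and -0.31, and for ZNF653, -0.53 and -0.35. With replicate number as a block, edgeR called 16 members higher and 14 lower (14.2%), against 29.1% of all genes tested, 15.1% higher and 14.0% lower. The 11 were all among these 30, and 19 were added. Among the added were ZNF492 (log2 fold change 0.70, edgeR adjusted p = 0.0407 with the block), ZNF547 (0.41, adjusted p = 0.0179) and ZNF682 (0.39, adjusted p = 0.00767), all higher in RRM2_OE and singled out after their values were seen. Those with described roles are given next. The median log2 fold change did not move with the block, at -0.03.

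Members whose roles have been described are given whether or not they moved. Among silencers of transposable elements, ZNF91, which represses SVA elements, read 23.2, 27.2, 24.5 and 25.8 CPM in MOCK and 25.1, 24.0, 26.3 and 22.0 in RRM2_OE. The groups overlapped, and its log2 fold change was -0.05 (SE 0.08, edgeR adjusted p = 0.754). Its relative ZNF93 lies in the same group of neighbours, and whether the 2 genes' changes differ was not tested. ZNF274, which directs SETDB1 to the ends of zinc finger genes themselves, stood at 41.6, 37.2, 38.9 and 39.9 CPM in MOCK and 41.1, 45.3, 40.4 and 47.6 in RRM2_OE. It was not called without the block (log2 fold change 0.15, edgeR adjusted p = 0.188) and only just with it (adjusted p = 0.0488). The log2 difference was 0.01 in replicates 1 and 3 alone and 0.27 in replicates 2 and 4 alone.

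ZNF331, an imprinted gene at the end of its group of neighbours, gave 19.4, 23.5, 19.3 and 24.9 CPM in MOCK and 23.8, 30.7, 25.6 and 32.1 in RRM2_OE. Groups overlapped, but within each replicate number RRM2_OE was higher, and the log2 fold change was 0.36 (SE 0.11, edgeR adjusted p = 0.0548, and 4.75e-05 with the block). DESeq2 called it without the block (adjusted p = 0.0385). ZNF85 showed a similar picture at 10.6, 11.0, 10.9 and 13.5 CPM against 13.9, 15.0, 12.2 and 16.2 (log2 fold change 0.32, edgeR adjusted p = 0.0767, and 0.00629 with the block). ZNF431, whose mouse counterpart represses the Hedgehog receptor gene Ptch1, had 46.7, 49.9, 48.6 and 49.2 CPM against 40.0, 45.6, 39.5 and 44.4. Its groups did not overlap (log2 fold change -0.20, edgeR adjusted p = 0.0519, and 0.00285 with the block).

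ZNF146, the most abundant member, ranged from 140 to 158 CPM in MOCK and from 129 to 145 in RRM2_OE, with a log2 fold change of -0.12 (SE 0.05, edgeR adjusted p = 0.142, and 0.00271 with the block). ZNF175 was 131 to 140 CPM and 133 to 141, and its log2 fold change was 0.01 (SE 0.04, edgeR adjusted p = 0.878). The interval of ZNF175, -0.07 to 0.10, leaves room only for a small change. ZNF444, a SCAN-domain factor first studied in endothelial cells, was 18.0 to 24.5 CPM in MOCK and 21.3 to 28.0 in RRM2_OE (log2 fold change 0.20, edgeR adjusted p = 0.287, and 0.0212 with the block).

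ZNF420, known as Apak and as a restraint on p53, stood at 9.05 to 12.5 CPM in MOCK and 7.66 to 10.8 in RRM2_OE (log2 fold change -0.18, SE 0.14, edgeR adjusted p = 0.472). ZNF224, a KRAB repressor of the aldolase A gene, was 40.0 to 48.5 and 36.7 to 45.2 CPM (-0.08, SE 0.08, edgeR adjusted p = 0.562). ZNF568, whose mouse counterpart silences a placental Igf2 transcript, was low at 4.86 to 7.18 and 3.55 to 5.92 CPM, and its log2 fold change of -0.40 had an SE of 0.18 (edgeR adjusted p = 0.170). None of these 3 was called with the block either, although ZNF568 was with the odd/even term (edgeR adjusted p = 0.0350). The other members of the list, ZNF382, a KRAB gene silenced by methylation in several tumour types, ZNF569, ZNF44, ZNF134, ZNF45, ZNF260 and ZNF90, had log2 fold changes between -0.13 (ZNF569) and 0.13 (ZNF44) and were called in neither fit.

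Along the chromosome, no group of neighbours moved as a whole. Medians of the log2 fold change over the 9 groups of at least 5 members ran from -0.07 in the group of 56 near the end of the long arm to 0.10 in the group of 5 that starts at ZNF554. The group beside the centromere, with the shared promoter sequence, had a median of -0.03 over its 28 tested members and a range from -0.29 to 0.70. It held 2 of the 5 rises and 1 of the 6 falls. The group of 56 (52 tested) held 1 rise and 3 falls, and the group of 39 that starts at ZNF175 (35 tested) held none of either. Over all genes tested 12.8% were called. With the replicate block these 3 groups held 5 higher and 3 lower, 4 higher and 6 lower, and 3 higher and 1 lower members, against 29.1% called over all genes tested. A tie between calls and position was not tested.

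Genes that act with KRAB zinc finger proteins, or in the H3K9me3 silencing they start, were followed as a list of 30. No gene of the list rose and 4 fell (13.3%, against 12.8% called and 5.42% lower over all genes tested), with a median log2 fold change of -0.06. TRIM28 itself stood at 291 to 301 CPM in MOCK and 292 to 307 in RRM2_OE (log2 fold change 0.01, SE 0.04, edgeR adjusted p = 0.907). SETDB1, the methyltransferase it recruits, fell from 74.9 ± 3.41 CPM to 65.6 ± 3.02 (SD, n = 4; log2 fold change -0.19, edgeR adjusted p = 0.0344), and ATF7IP, its stabilising partner, from 66.1 ± 1.78 to 56.7 ± 2.59 (-0.22, edgeR adjusted p = 0.0142).

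EHMT1, which methylates H3K9 in euchromatin, fell from 88.9 ± 2.15 to 78.1 ± 1.13 CPM (log2 fold change -0.19, edgeR adjusted p = 0.0136), and ATRX, a chromatin remodeller of heterochromatin, from 160 ± 8.68 to 140 ± 9.08 (-0.19, edgeR adjusted p = 0.0394). The groups did not overlap in any of these 4 genes. With the replicate block 2 cofactors were called higher and 10 lower (40.0%), against 29.1% of all genes tested, 15.1% higher and 14.0% lower. All 30 were tested, and no value in the list exceeded 0.22 in size.

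Odd and even replicate numbers were compared in a fit with both group and parity. What the numbers stand for is not given in the labels. The split was chosen because an earlier analysis of these same libraries had shown it. Its p-values are therefore descriptions and no independent test of the split. In that fit 11 members were higher and 25 lower in replicates 1 and 3 than in replicates 2 and 4 (edgeR, adjusted p below 0.05). That is 17.1% of the 211, against 30.4% of all genes tested, where the calls were split evenly (15.4% higher and 15.0% lower). Between the constructs the same fit called a similar number of members, 31 (16 higher and 15 lower, 14.7%), against 30.8% of all genes tested, 15.9% higher and 14.9% lower. Members leaned to one side: 156 of 211 were lower in replicates 1 and 3, with a median log2 difference of -0.09 against -0.00 for all genes. In this fit 7 members were called both between the constructs and between odd and even numbers: ZNF93, ZNF146, ZNF331, ZNF444, ZNF823, ZNF121 and ZNF468, the last 2 named after their values were seen. Of these, ZNF93 alone was also called between the constructs without the parity term, and it differed by 0.17 between odd and even numbers (edgeR adjusted p = 0.0102). The share of counts from mitochondrial genes went the opposite way to most members and was higher in the odd-numbered libraries, at 8.02% to 9.51% in replicates 1 and 3 and 6.43% to 7.69% in replicates 2 and 4. Its part in these differences was not tested.

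The largest of these differences were repeated in both groups. ZNF579 gave 22.0, 12.3, 20.2 and 12.3 CPM in MOCK replicates 1 to 4 and 20.5, 11.4, 19.6 and 10.9 in RRM2_OE, an alternation repeated in both groups (log2 difference 0.81, SE 0.08, edgeR adjusted p = 6.47e-12). ZNF580 gave 34.7, 25.6, 33.7 and 22.6 CPM and then 33.8, 23.3, 32.0 and 21.2 (0.53, edgeR adjusted p = 1.05e-09), and ZNF628 10.1, 6.63, 11.0 and 7.36, then 9.31, 6.36, 8.32 and 6.22 (0.54, edgeR adjusted p = 8.98e-05). In all 3 genes every odd-numbered library lay above every even-numbered one.

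In the other direction, ZNF225 gave 8.28, 13.0, 9.85 and 12.7 CPM in MOCK and 8.44, 12.9, 9.36 and 11.7 in RRM2_OE (-0.49, edgeR adjusted p = 6.92e-05). ZNF548 gave 16.0, 22.5, 17.4 and 20.0 CPM, then 13.4, 20.1, 14.0 and 19.8 (-0.44, edgeR adjusted p = 7.59e-06). ZNF823 had the largest difference at -0.54 (edgeR adjusted p = 4.63e-04), with 4.93, 8.85, 5.64 and 6.82 CPM and then 7.57, 11.2, 6.07 and 8.38, so that its odd and even libraries overlapped when the groups were pooled but not within a group.

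The 2 directions differed in base composition and in place. The 11 members higher in replicates 1 and 3 had a median transcript GC content of 65.8%, the 25 lower ones 42.6% and all 211 tested 42.4%. At 55% GC or more, a limit chosen after the values were seen, 9 of 23 members were called higher and none lower, and below it 2 of 188 were called higher and 25 lower. Across the 211 members GC content and the log2 difference had a Spearman rho of 0.21 and a Pearson r of 0.50, and across 12456 genes tested a rho of 0.36. Members share libraries and sequence, and these values are descriptions. GC content and the difference between RRM2_OE and MOCK had a rho of -0.02 over the same members.

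Of the 11 higher members, 7 lie in the group near the end of the long arm, and all 7 near its start: ZNF628, ZNF579, ZNF865, ZNF784, ZNF580, ZNF581 and ZNF444. ZNF865, ZNF784 and ZNF581 were named after their values were seen, at log2 differences of 0.51, 0.38 and 0.29. ZNF580 and ZNF581 overlap on the same strand. ZNF444 also differed, at 0.33 (edgeR adjusted p = 7.82e-05), while among the members with described roles ZNF331 (-0.34), ZNF420 (-0.36), ZNF45 (-0.25), ZNF224 (-0.21) and ZNF146 (-0.10) were lower in replicates 1 and 3.

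**Figure D4:**
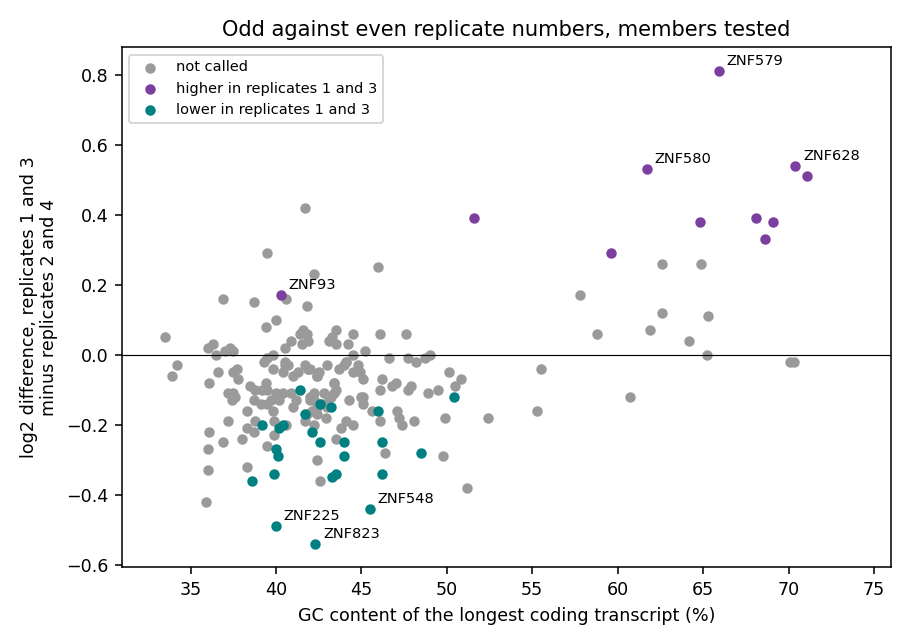
Log2 difference of CPM between replicates 1 and 3 and replicates 2 and 4, both groups together, against the GC content of the longest coding transcript for the 211 tested members. Members called higher in replicates 1 and 3 (purple) lie mostly above 55% GC with ZNF579 highest at 0.81, and those called lower (green) lie between 38.6% and 50.4% GC.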

How the data were processed

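The deposited table holds the authors' whole-number read counts per Ensembl gene. The authors' deposited RPKM values were recomputed from those counts, column totals and exon lengths to within 4.73e-06. Per the submitters' processing notes, bcl2fastq 2.18.0.12, TopHat2, HTSeq 0.11.2 and hg19 were used. Annotation and strand setting: not given in the sources used here. Symbols came from Ensembl IDs. Library totals of 10994255 to 11686152 counts limit the precision of members with few counts.

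Counts were tested with edgeR 4.0.16 (R 4.3.3) over all 8 libraries: filterByExpr, TMM, robust quasi-likelihood F tests and Benjamini-Hochberg adjustment over the 15286 genes tested. CPM values use TMM-scaled library sizes. Standard errors were derived from the F statistic and the fitted change. The test was also run on simulated counts that had the same spread setting for every gene and no odd/even difference. That check therefore does not cover the odd/even differences of the real libraries. Members, lists and tests were chosen with earlier results of these data known. The rule named the 8 highest and 2 lowest members, called members without overlap (up to 8 per direction), 20 members with described roles (ZNF8 was not analysed here), the 3 most different between odd and even numbers in each direction, extremes of each group of neighbours, and TRIM28, SETDB1 and called cofactors.

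Same-numbered libraries of the 2 groups correlated in their deviations from group means at 0.25, 0.23, 0.22 and 0.23. All passed 0.1, so the numbers were taken to pair the libraries, although any libraries of like parity correlated at 0.22 to 0.29. These values therefore cannot tell pairing by number from likeness of parity. Alternatives were DESeq2 1.42.0, limma 3.58.1 on log2 RPKM with pseudocounts of 1 and 0.1, other scalings, other low-count filters, a replicate block, an odd/even term, each parity alone, an adjusted p of 0.01 and leaving out each library.

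Transcript GC, linker matches and shared 50-base stretches came from the GENCODE 29 protein-coding transcript with the longest coding sequence of each gene. Promoters came from RefSeq (GRCh38.p14). Finger counts and KRAB domains per protein were not analysed here.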

Additional observations from a re-analysis of the deposited data

Results flagged for a closer look

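Among the named members, the 4 libraries of a group were checked for one that lies far from the other 3, by the gap to its nearest neighbour over the whole range. Of 90 groups checked, 5 exceeded Dixon's limit for 4 values, where chance gives about 1 in 20. ZNF829 in MOCK (ratio 0.841) had replicate 4 at 4.93 CPM below the others at 5.37 to 5.46. ZNF507 in RRM2_OE (0.853) had replicate 4 at 28.2 CPM above 23.9 to 24.6, which brings it nearest to MOCK. ZNF569 in RRM2_OE (0.938) had replicate 2 at 12.2 CPM above 10.1 to 10.3. ZNF44 in MOCK (0.884) had replicate 4 at 19.1 CPM above 15.9 to 16.3, and ZNF85 in MOCK (0.860) had replicate 4 at 13.5 CPM above 10.6 to 11.0.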

How the results depend on the processing

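ZNF93 and ZNF587 kept their call and direction in all 20 alternative settings, and ZNF441 lost its call only at an adjusted p of 0.01. Over the 11 called members, 143 of 220 checks kept the call, 77 lost it and none reversed. Of 620 checks on 31 named genes not called, 32 gained a call. The 5 rises became 16 with the odd/even term, 16 with the replicate block and 1 at an adjusted p of 0.01, and 3 to 6 when a library was left out. The 6 falls became 3 with DESeq2, 3 with limma on log2 RPKM at a pseudocount of 0.1 and 3 at 1, 15 with the odd/even term, 14 with the replicate block, 1 at an adjusted p of 0.01, and 1 to 4 when a library was left out. The cause was not tested. With library sizes only there were 5 rises and 4 falls. The median log2 fold change stayed between -0.05 and -0.01, and the 36 members called between odd and even numbers ranged from 25 to 49. Joining neighbours at 0.5 Mb gave 10 groups of at least 5 members in place of 9. Depth leaves 23 members untested, 17 of them with under 10 counts.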
